A study of Mus musculus with 36 samples.

Results

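The late remodeling step of fracture healing in wild-type (WT) mice was examined as the change in gene expression of the callus from 21 days (D21) to 28 days (D28) after fracture. The arrays were chosen by their labels, which give 3 WT arrays at D21 and 3 WT arrays at D28 out of 36 arrays in all. Both groups came from 8-week-old male C57BL/6N mice with a closed fracture of the left femur held by an intramedullary pin. The mice were wild type. The sample was the callus with 1 mm of the adjoining bone shaft on either side after soft tissue had been removed. RNA of 5 mice was pooled for each group and the pool was run on 3 Illumina MouseRef-8 v2 arrays, so each group is 1 pool and all p-values measure the spread between technical arrays and not between mice. The same step was read in RAG1-/- mice of the same background, which lack mature T and B cells, from 3 arrays of 1 pool at each day. WT arrays of intact femora (D0) and of callus at D3, D7 and D14 entered the estimate of the spread.

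A closed fracture heals through a soft callus of cartilage that is replaced by woven bone. Osteoblasts lay down a matrix of type I collagen together with osteocalcin and bone sialoprotein, and osteoclasts dissolve it with acid and cathepsin K. In the remodeling phase both cell types work on the same surface, the hard callus shrinks, and lamellar bone takes the place of woven bone.

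All values are log2 intensities, and a difference of 1 on this scale is a 2-fold change. A gene was tested when its probe lay above 4.72 in the mean of all 36 arrays, the median of the 25697 probes, and was represented by its brightest probe. Values below 5 are called near the floor, where the size of a difference can only be read as a lower limit. The arrays of a WT group were less alike than those of a RAG1-/- group, with pairwise correlations over the tested genes of 0.933 to 0.951 at WT D21, 0.894 to 0.910 at WT D28 and 0.990 to 0.993 within the RAG1-/- groups of the same days. Arrays of WT D21 correlated with those of WT D28 at 0.888 to 0.926. WT D14 also held arrays that lay apart, with pairwise correlations of 0.934 to 0.995, and leaving D14 out of the estimate of the spread gave 114 genes higher and 251 lower at D28. Because these are bulk samples, fewer cells of a type and less RNA per cell cannot be told apart. The osteoblast markers Col1a1, Ibsp, Bglap1, Bglap2 and Sp7 were well above the floor on every array of both days. So were the osteoclast markers Ctsk and Mmp9, whereas Acp5 and Calcr had means of 4.63 to 5.97. Of the tested cartilage markers, Acan and Col9a1 had means of 4.30 to 5.29. Col2a1 had means of 6.91 at D21 and 5.44 at D28, and Comp of 8.30 and 8.74.

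Between D21 and D28, 192 of the 10291 tested genes were downregulated in WT callus (1.87%) and 58 were upregulated (0.564%). A gene counted as such when its p from limma, adjusted by Benjamini-Hochberg, was below 0.05. By more than 2-fold, 152 were downregulated (1.48%) and 36 upregulated (0.35%). The unadjusted p was under 0.05 for 1409 genes (13.7%). For 1279 genes every D28 array lay below every D21 array (12.4%), and for 968 genes every D28 array lay above (9.41%). The median difference over all tested genes was -0.04. The counts depended on the arrays that gave the spread, with 7 genes higher and 43 lower from the 6 arrays alone and 446 higher and 820 lower from all 36. Leaving out WT D21 replicate 1, 2 or 3 gave 33, 23 or 22 higher and 117, 105 or 120 lower. Of the 192 downregulated genes, 188 had a D21 mean above 6 and 51 had a D28 mean near the floor.

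**Figure D1:**
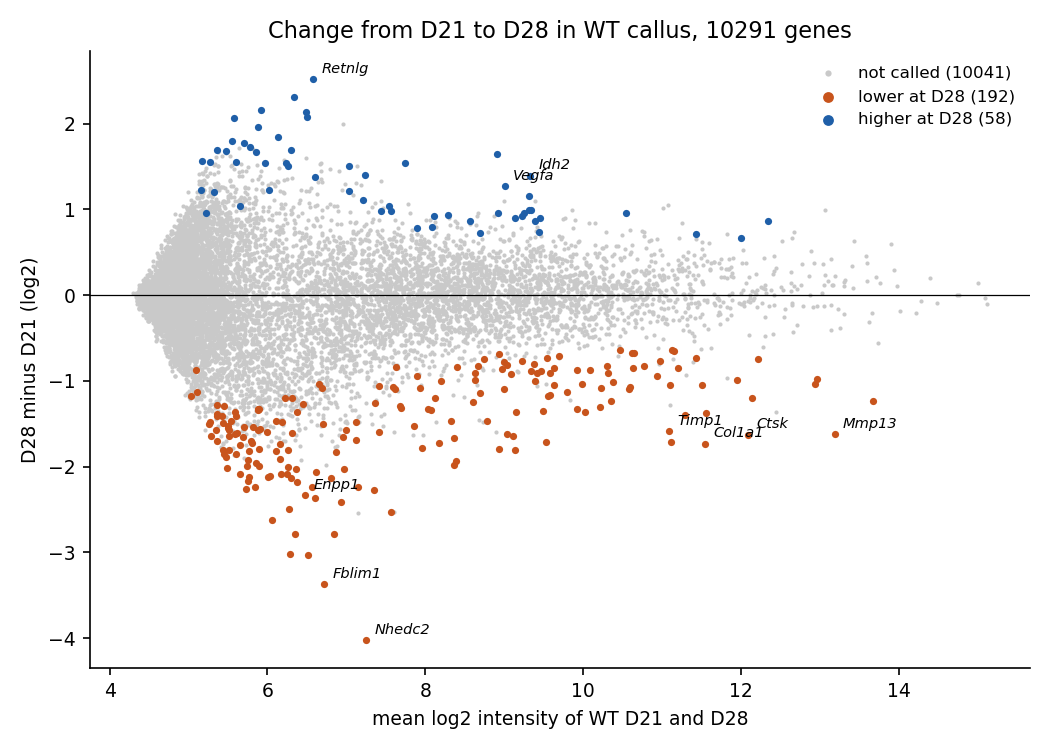
Difference D28 minus D21 in WT (log2, vertical axis) against the mean log2 intensity of both groups (horizontal axis) for the 10291 tested genes, with 192 called lower in orange, 58 called higher in blue and the rest in grey. Most called genes lie below 0, and the largest difference is that of Nhedc2 at -4.02.

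Genes of bone-forming cells were downregulated. Col1a1, the alpha 1 chain of type I collagen and the main protein of bone matrix, read 12.48, 12.41 and 12.33 on the D21 arrays and 10.75, 10.57 and 10.71 on the D28 arrays. The groups did not overlap, and the 3.32-fold fall (difference -1.73, SE 0.16, adjusted p = 3.81e-05 by limma) was many times the SD of 0.08 at D21 and of 0.10 at D28 (n = 3 each). Col1a2, the alpha 2 chain, was at 10.03, 9.92 and 9.53 at D21 and at 7.69, 7.97 and 8.45 at D28. The lowest D21 array therefore stood above the highest D28 array (difference -1.80, SE 0.42, adjusted p = 0.0354), although the arrays of Col1a2 were more spread than those of Col1a1. Sp7, the transcription factor osterix that osteoblasts need to form, read 10.45, 10.27 and 10.44 at D21 against 8.69, 8.82 and 8.53 at D28, a 3.28-fold fall (adjusted p = 0.00109).

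Ibsp, bone sialoprotein, which binds the forming mineral, read 11.95, 11.80 and 12.21 at D21 and 10.46, 10.83 and 10.48 at D28 (2.63-fold lower, adjusted p = 0.00117). Its second probe had a difference of -0.87 and did not pass. Bglap2, an osteocalcin gene, read 12.88, 12.59 and 12.76 at D21 and 11.41, 11.66 and 11.56 at D28 (2.29-fold lower, adjusted p = 0.00227). The related Bglap1 (-1.04, adjusted p = 0.00406) also fell, and since these osteocalcin genes are near-identical copies their probes may share signal. Dlx3, a homeobox factor of osteoblast differentiation, fell from 8.85 ± 0.16 to 7.07 ± 0.48 (SD, n = 3). Pthr1, the parathyroid hormone receptor, read 8.97, 8.75 and 8.77 at D21 and 6.42, 5.07 and 7.41 at D28, so its 5.78-fold fall (adjusted p = 0.00594) came with widely scattered D28 arrays.

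Of 23 tested genes of an osteoblast and osteocyte list, 9 were downregulated (39.1%, against 1.87% of all tested genes) and none upregulated, with a median difference of -1.23. In 16 of the 23 every D28 array lay below every D21 array, against 12.4% of all tested genes, which is also the share for the lists below. Among the 14 that did not pass were Spp1, osteopontin (11.74 ± 0.20 to 10.47 ± 0.08, adjusted p = 0.0591), and Sparc, osteonectin (12.31 ± 0.11 to 11.34 ± 0.11, adjusted p = 0.202). Akp2, the alkaline phosphatase that frees phosphate for mineral, was also short of the limit at -1.05 (adjusted p = 0.138), with no overlap between its arrays. Tnfsf11, the osteoclast-inducing ligand RANKL, differed by 0.03 and its decoy receptor Tnfrsf11b, osteoprotegerin, by -0.19, both with overlapping arrays close to the floor. Runx2 and Sost were below the filter and not tested.

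**Figure D2:**
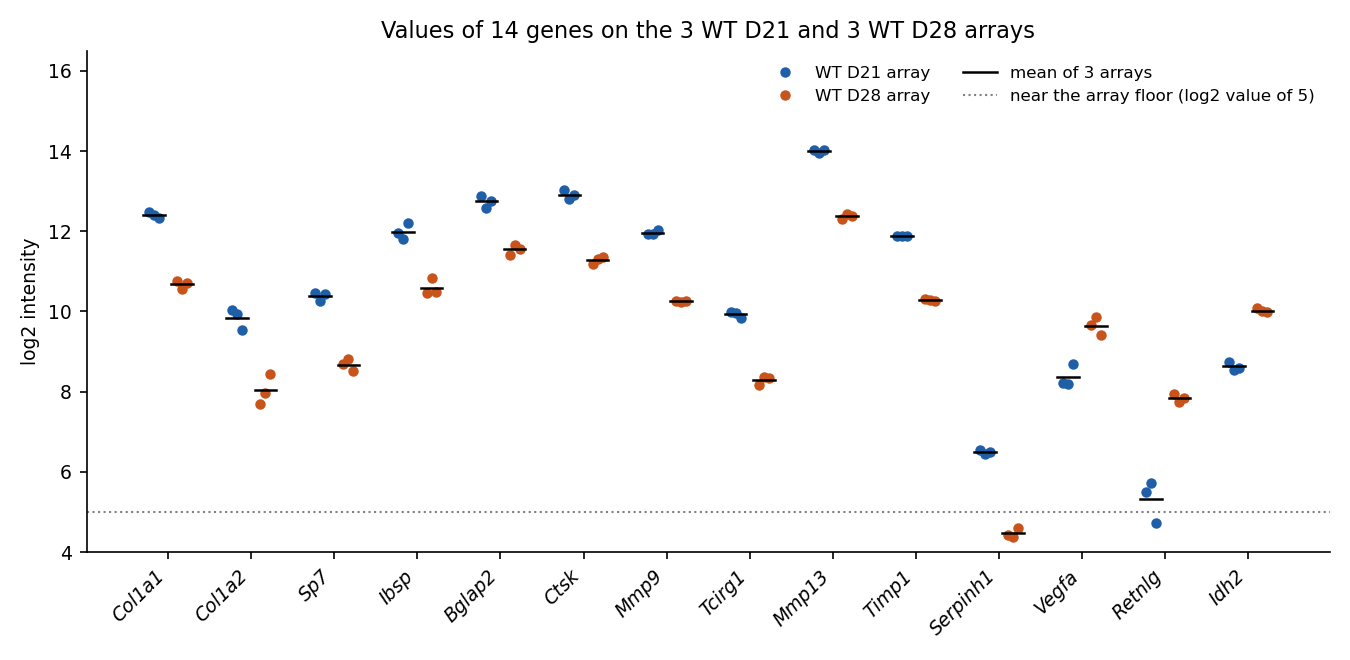
Log2 intensity (vertical axis) of 14 genes on each of the 3 WT D21 arrays (blue points) and 3 WT D28 arrays (orange points), with the mean of each group as a black line and a log2 value of 5 as a dotted line. For every gene shown the 2 groups do not overlap. Mmp13 runs from a mean of 14.00 to 12.37 and Retnlg from 5.32 to 7.84.

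Among the 117 genes downregulated in both genotypes were a collagenase, a mineral-binding matrix protein and the osteoclast collagenolytic enzyme. The last of these, Ctsk, fell less in WT (-1.63) than in RAG1-/- (-3.45). Upstream stretches of these 3 genes are shown as examples. Each is the 250 bases before the RefSeq start of the gene in build GRCm38.p6 on the plus strand, at chr9:7272264-7272513 for Mmp13, chr5:104299037-104299286 for Ibsp and chr3:95498960-95499209 for Ctsk. Capitals mark the core motif of RUNX factors (ACCACA, or TGTGGT on the other strand) and the AP-1 motif (TGANTCA, the same on both strands), which do not overlap here.
Mmp13: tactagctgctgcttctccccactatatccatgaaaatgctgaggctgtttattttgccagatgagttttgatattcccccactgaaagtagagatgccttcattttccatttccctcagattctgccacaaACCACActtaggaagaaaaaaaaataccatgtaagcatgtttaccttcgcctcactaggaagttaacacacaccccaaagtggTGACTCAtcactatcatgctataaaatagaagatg
Ibsp: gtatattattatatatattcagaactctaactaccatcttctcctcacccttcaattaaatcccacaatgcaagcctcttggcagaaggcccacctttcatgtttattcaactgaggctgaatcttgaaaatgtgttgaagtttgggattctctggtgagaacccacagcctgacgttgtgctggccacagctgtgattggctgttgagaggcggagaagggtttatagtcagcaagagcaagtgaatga
Ctsk: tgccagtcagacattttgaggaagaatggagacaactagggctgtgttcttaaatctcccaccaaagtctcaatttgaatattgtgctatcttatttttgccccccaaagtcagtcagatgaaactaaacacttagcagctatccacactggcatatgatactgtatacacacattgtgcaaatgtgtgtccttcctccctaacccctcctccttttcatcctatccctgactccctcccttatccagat
Mmp13 held a single RUNX core, 118 to 113 bases before the start, and a single AP-1 motif, 35 to 29 bases before it, while these letters were not in the windows of Ibsp and Ctsk. Of 32851 windows of this length in the table, 14.0% held the RUNX core and 6.75% the AP-1 motif. For the 9993 windows of tested genes the shares were 11.2% and 5.23%. They were 9.84% and 9.84% for the 193 windows of downregulated genes, and 6.78% and 0% for the 59 of upregulated genes. Among the 25 downregulated members of the bone cell, collagen, collagen processing and protease lists, 18 matched the table with 27 windows, of which 1 held the RUNX core and 2 the AP-1 motif. These matches describe letters only, and binding was not tested.

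Fibrillar collagens and the proteins that process them were lower at D28 as well. Of 25 tested collagen genes 5 were downregulated (20%) and none upregulated, with a median difference of -0.38, and in 13 the arrays did not overlap with D28 lower. Beside Col1a1 and Col1a2 these were Col16a1, a fibril-associated collagen (11.14 ± 0.06 to 10.04 ± 0.15), Col5a1, which regulates fibril diameter (11.41 ± 0.04 to 10.46 ± 0.08), and Col24a1 (7.68 ± 0.12 to 5.45 ± 0.41), whose second probe differed by only -0.13. The microfibrillar Col6a1 (-0.74, adjusted p = 0.078) and the basement membrane chain Col4a1 (-0.17, adjusted p = 0.831) did not pass. A second probe of Col6a1, almost as bright, showed a larger fall (-1.01, SE 0.16).

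Of 27 genes for collagen folding, processing and crosslinking 4 were downregulated (14.8%), with a median of -0.63 and non-overlapping lower arrays in 15. Serpinh1, the collagen chaperone Hsp47, read 6.55, 6.44 and 6.50 at D21 and 4.44, 4.38 and 4.61 at D28. All 3 D28 arrays were near the floor, so the 4.06-fold fall (adjusted p = 0.00894) is a lower limit. Bmp1, the proteinase that trims procollagen at its C-terminal end, fell 2.52-fold (adjusted p = 0.00113) from 10.76, 10.41 and 10.60 to 9.10, 9.42 and 9.26. Adamts2, which trims the N-terminal end, fell from 10.35 ± 0.01 to 9.48 ± 0.09 (adjusted p = 0.0435). Pcolce, the enhancer of Bmp1, fell from 8.26 ± 0.09 to 6.02 ± 1.37, where single D28 arrays ran from 4.51 to 7.17. P4hb, a subunit of prolyl hydroxylase, was at -0.63 (adjusted p = 0.169) and the crosslinking enzyme Loxl1 at -0.29 (adjusted p = 0.527).

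Osteoclast genes were downregulated in the same interval. Ctsk, cathepsin K, the protease that degrades collagen in the acid space under the osteoclast, read 13.02, 12.81 and 12.89 at D21 and 11.17, 11.31 and 11.36 at D28, a 3.09-fold fall (SE 0.22 on the log2 scale, adjusted p = 0.00113). Mmp9, gelatinase B, read 11.93, 11.93 and 12.04 at D21 and 10.26, 10.22 and 10.26 at D28, and its fall of 3.28-fold (adjusted p = 4.58e-05) rested on D28 arrays within an SD of 0.02. Tcirg1, a subunit of the proton pump that acidifies the resorption space, fell 3.11-fold from 9.98, 9.95 and 9.84 to 8.16, 8.37 and 8.34 (adjusted p = 0.00104), and its second probe gave -1.56. None of these groups overlapped.

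Src, the kinase needed for the ruffled border, read 8.16, 7.99 and 8.26 at D21 and 5.54, 6.71 and 4.93 at D28 (adjusted p = 0.0012). Snx10, a sorting protein needed for osteoclast resorption (9.52 ± 0.04 to 8.05 ± 0.38), and Slc4a2, the bicarbonate and chloride exchanger of the osteoclast (10.89 ± 0.05 to 9.87 ± 0.09), fell with it. Of 19 tested osteoclast genes 6 were downregulated (31.6%) and none upregulated, with a median of -0.58 and non-overlapping lower arrays in 10. The remaining 13 included Acp5, tartrate-resistant acid phosphatase (6.31, 5.90 and 5.71 to 6.09, 5.06 and 4.74, adjusted p = 0.344), whose groups overlapped. Plekhm1 (-0.48) and Ostm1 (-0.15), both needed for acid secretion or its vesicles, did not pass either. The summed linear level of the list, given as log2, ran from 14.13 to 14.22 on the D21 arrays and from 12.91 to 12.95 on the D28 arrays.

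Matrix proteases and their inhibitors overlapped with these lists. Mmp13, collagenase 3, made by hypertrophic chondrocytes and osteoblasts, read 14.01, 13.96 and 14.01 at D21 and 12.31, 12.44 and 12.37 at D28, a 3.08-fold fall with an SE of 0.14 and an adjusted p = 3.81e-05. Its other tested probes had D21 means of 4.93 and 5.00 and did not pass, with a difference of -0.47 for the second. Timp1, an inhibitor of metalloproteinases, read 11.89, 11.87 and 11.89 at D21 and 10.31, 10.30 and 10.27 at D28. Its 3.01-fold fall (adjusted p = 3.81e-05) was seen with a second probe at -1.59. Timp2 fell less, from 11.44 ± 0.11 to 10.81 ± 0.05 (adjusted p = 0.0452). Of 28 genes of this list 5 were downregulated (17.9%), none upregulated and 12 had non-overlapping lower arrays, with a median of -0.41. Mmp2 (-0.81, adjusted p = 0.0606) and the lysosomal protease Ctsb (-0.62, adjusted p = 0.0736) did not pass.

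Of a list of hypertrophic cartilage and mineralization genes, 2 were downregulated and 2 upregulated, and the latter are known for vessel growth and calcium binding. Enpp1, which makes the mineralization inhibitor pyrophosphate, read 7.63, 7.37 and 7.93 at D21 and 5.20, 5.37 and 5.37 at D28, a 5.04-fold fall (adjusted p = 0.0062), and its second probe was at -1.09. Vegfa, the main growth factor for vessels, was upregulated, from 8.23, 8.19 and 8.70 to 9.65, 9.86 and 9.41. Its 2.41-fold rise (adjusted p = 0.0262) was not seen at this size with the second probe (0.70). S100a1, a calcium-binding protein of cartilage and muscle, rose from 7.69 ± 0.11 to 8.48 ± 0.06. Ank, a pyrophosphate exporter (-0.55, adjusted p = 0.0923), and Mgp, matrix Gla protein (-0.38, adjusted p = 0.408), did not pass. The list had 7 tested genes, and Mmp13 was its other member that fell. Col10a1 was below the filter, and Col2a1, type II collagen of cartilage, went from 6.91 ± 0.29 to 5.44 ± 0.47 without passing (adjusted p = 0.322). None of 9 cartilage genes passed, among them Comp (0.44) and Chad (0.06).

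Noncollagenous matrix genes were split. Of 34 tested, 4 were downregulated (11.8%), 1 was upregulated and the median was -0.19. Srpx2 (9.89 ± 0.12 to 8.88 ± 0.08), the matrilin Matn4 (10.52 ± 0.02 to 9.64 ± 0.18), the elastic fiber protein Efemp2 (9.12 ± 0.07 to 8.38 ± 0.25) and thrombospondin 2, Thbs2 (10.98 ± 0.02 to 10.30 ± 0.05), fell. Spon2 rose from 11.07 ± 0.07 to 11.78 ± 0.02 (adjusted p = 0.0296). The proteoglycans decorin, Dcn (0.01), and biglycan, Bgn (-0.61, adjusted p = 0.0816), did not pass.

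Among signaling genes the matricellular Wisp1 and Wisp2 were the members of a list of 28 Wnt genes that passed, both downward. That is 7.14% of the list, against 1.87% of all tested genes. Wisp1 read 9.70, 9.77 and 10.06 at D21 and 8.00, 8.20 and 8.47 at D28 (3.07-fold lower, adjusted p = 0.00104). Wisp2 read 9.47, 9.47 and 9.15 against 7.40, 7.68 and 7.20 (adjusted p = 0.0226). Beta-catenin, Ctnnb1 (-0.30), and the inhibitor-related Dkk3 (-0.21) did not pass. Of 37 BMP and TGF beta genes 2 fell (5.41%, against the same 1.87%). They were Bmp1 and the type I receptor Tgfbr1 (10.14 ± 0.14 to 8.96 ± 0.22, second probe -0.44). Acvr2b (0.28) and Ltbp4 (0.54) did not pass. Of 36 growth factor genes 3 fell (8.33%, against 1.87%) and Vegfa rose (2.78%, against 0.564% of all tested genes). Those that fell were Angptl4 (7.78 ± 0.02 to 5.95 ± 0.99), the neurotrophin Bdnf (6.10 ± 0.40 to 4.80 ± 0.32, second probe -0.15) and progranulin, Grn (9.87 ± 0.02 to 8.96 ± 0.05). Ctgf was at -0.13 and Igfbp5 at 0.29.

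The largest decrease belonged to Nhedc2, a sodium and proton exchanger known from osteoclasts and now named Slc9b2. It read 9.48, 9.04 and 9.26 at D21 and 6.71, 4.44 and 4.57 at D28 (difference -4.02, SE 0.49, adjusted p = 0.000471). With 2 of the 3 D28 arrays near the floor this is a lower limit. Fblim1, the filamin-binding protein migfilin, fell by 3.38 on the log2 scale (8.31, 8.52 and 8.38 to 5.91, 4.67 and 4.50). Slit2, a secreted guidance ligand of Robo receptors, read 7.80, 7.71 and 7.88 at D21 and 4.50, 4.60 and 5.25 at D28. Both had an adjusted p of 3.81e-05, as did Tmem176a (-2.49). Fam109a (-3.03), the protease-like Prss35 (-2.79), the acid-sensing channel Accn3 (-2.79), Erdr1 (-2.62) and the semaphorin Sema7a (-2.37) completed the 12 largest decreases together with Pthr1, Src and Enpp1. All 12 had D28 means of 4.74 to 6.30. Other tested probes of Accn3 differed by only -0.85 and -0.23.

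Lysosomal genes were seen among the downregulated genes and are named here after their values were known, with no list or test behind them. The beta-hexosaminidase subunit Hexa read 10.80, 10.61 and 10.68 at D21 and 9.34, 9.46 and 9.22 at D28 (adjusted p = 0.000348). The activator Gm2a fell from 9.09 ± 0.09 to 8.18 ± 0.17. Beta-galactosidase, Glb1 (-1.81), beta-glucuronidase, Gusb (-1.17), and arylsulfatase B, Arsb (-1.98), fell too. For Arsb a second probe close to the floor was at 0.15. The proton pump genes Atp6v1b2 (-1.13), Atp6v0b (-0.68) and Atp6ap2 (-0.85) were likewise lower.

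Of the 58 upregulated genes 31 had a D21 mean above 6, while the 12 with the largest rises had D21 means below it. Retnlg, a resistin-like protein made by neutrophils, read 5.51, 5.73 and 4.72 at D21 and 7.93, 7.75 and 7.84 at D28 (difference 2.52, SE 0.34, adjusted p = 0.00104), the largest rise. Tcf15, a basic helix-loop-helix factor, read 4.81, 4.64 and 6.10 against 7.40, 7.63 and 7.45 (adjusted p = 0.00113). Pxmp2, a peroxisomal membrane protein, read 4.94, 4.75 and 4.76 against 6.25, 6.75 and 6.80 (adjusted p = 0.00253). In all 3 the groups stood apart. The methyltransferase Inmt (2.16), the zinc finger gene Zfp768 (2.08), the Polycomb cofactor Aebp2 (2.07), Angptl7 (1.96), the helicase Helz (1.84), the olfactory receptor Olfr725 (1.80), LOC100043257 (1.72) and the muscle gene Myot (1.70) were also among the 12 largest rises, with adjusted p of 0.0103 to 0.0452. Of the circadian clock genes Tef (0.51) and Bhlhb2 (0.11) did not pass.

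At higher levels, the mitochondrial isocitrate dehydrogenase Idh2 read 8.75, 8.55 and 8.60 at D21 and 10.08, 10.02 and 9.98 at D28 (2.63-fold higher, adjusted p = 0.00117). Ckmt2, the mitochondrial creatine kinase of muscle (11.90 ± 0.06 to 12.77 ± 0.07), Ech1 of fatty acid oxidation (10.06 ± 0.12 to 11.02 ± 0.15) and Acss2, an acetyl-CoA synthetase (7.02 ± 0.05 to 8.06 ± 0.12), rose as well, and so did Reln, reelin (6.29 ± 0.62 to 7.79 ± 0.20). Idh2, Ckmt2 and Ech1, like Ndufb3 here, Akp2, Col5a1, Snx10, Slc4a2 and Timp2 above, and Mylpf, Ltf and Camp below, lie outside the naming rule and were singled out after their values were seen. Of 59 tested genes of the respiratory chain and ATP synthase none passed the test (smallest adjusted p = 0.0688, for Ndufb3). In 41 of them every D28 array lay above every D21 array, against 9.41% of all tested genes, and the median difference was 0.37 with 55 of 59 above 0. Ndufb3 read 9.27, 9.38 and 9.41 at D21 and 9.78, 10.25 and 10.11 at D28, whereas Atp5b (0.14) and Atp5g3 (0.22) had overlapping arrays.

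The summed linear level of 36 skeletal muscle genes, as log2, was 18.18 to 18.24 at D21 and 18.30 to 18.31 at D28, while 1 of the 36 passed, Myot, and the median difference was 0.08. In 7 of the 36 every D28 array was higher, against 9.41% of all tested genes. In 6 every D28 array was lower, against 12.4%, such as the myosin light chain Mylpf (12.87 ± 0.05 to 12.44 ± 0.02, adjusted p = 0.425). Pvalb (-0.04) and Myl1 (-0.10) reached the highest value of the arrays, 15.23, on both days, so a rise of these could not be read. The part of muscle in the higher values of the respiratory genes was not tested.

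**Figure D3:**
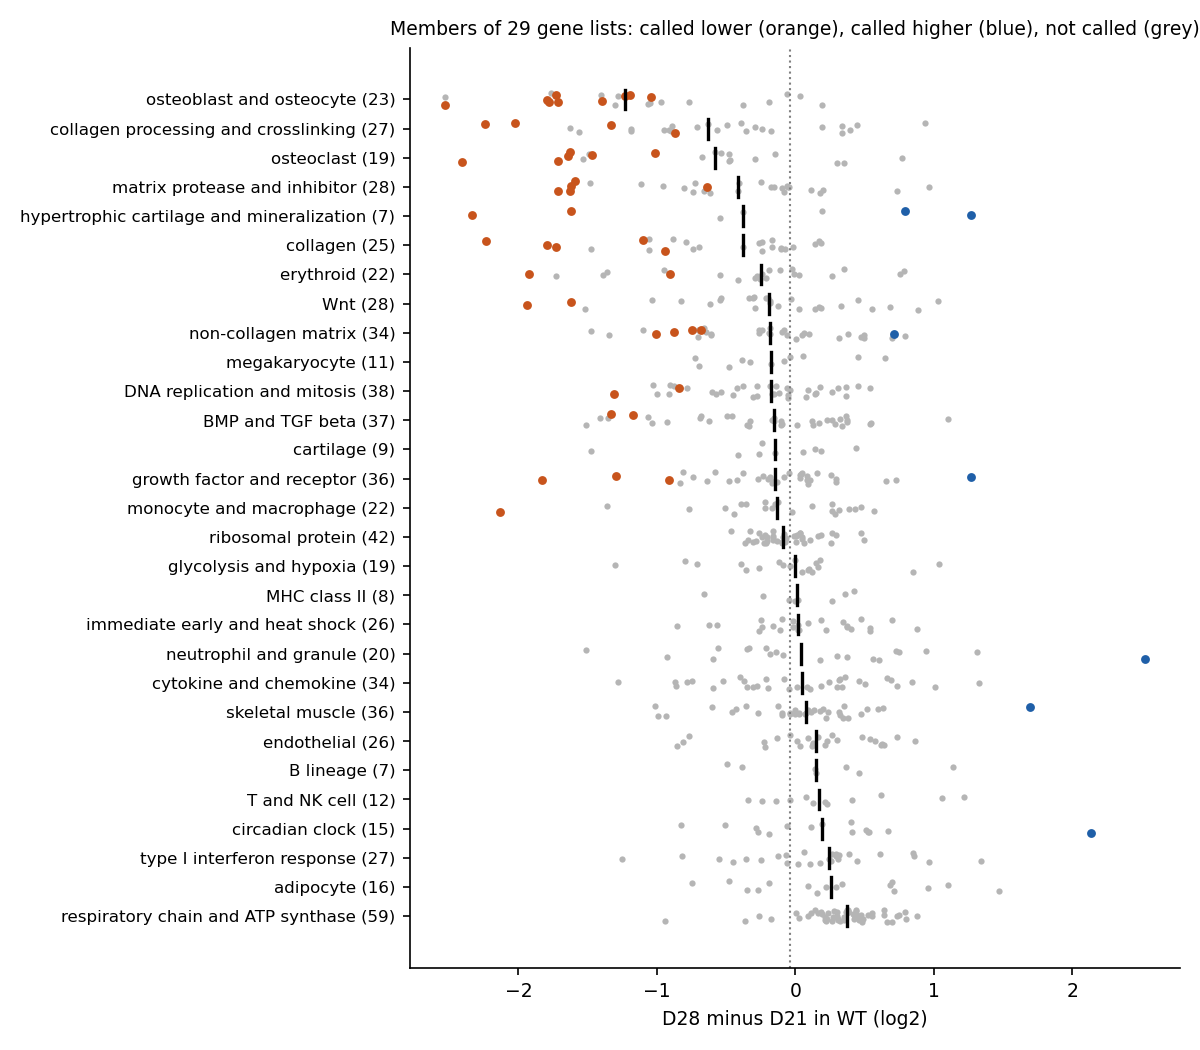
Difference D28 minus D21 in WT (log2, horizontal axis) of the tested members of 29 gene lists (rows, number tested in brackets), with called lower members in orange, called higher in blue and the rest in grey. The black bar is the median of a list and the dotted line the median of all tested genes at -0.04. The median of the osteoblast list lies at -1.23 and that of the respiratory list at 0.37.

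Blood cell genes changed little. Of 22 erythroid genes 2 fell (9.09%, against 1.87% of all tested genes). They were Kel, a blood group antigen (6.71 ± 0.27 to 4.79 ± 0.25), and Tfrc, the transferrin receptor (10.03 ± 0.16 to 9.13 ± 0.17). The anion exchanger Slc4a1 went from 13.12 ± 0.11 to 11.76 ± 0.03 with no overlap, yet its adjusted p was 0.446 in a fit whose spread included an SD of 2.43 at WT D14. Hba-a1 was at -0.21. The summed erythroid level ran from 15.18 to 15.26 at D21 and from 14.72 to 14.95 at D28. Retnlg was the called member of 20 neutrophil genes (5% higher, against 0.564% of all tested genes). Neither S100a8 (10.94, 11.04 and 11.16 to 11.79, 11.79 and 11.76, adjusted p = 0.183) nor S100a9 (0.75, adjusted p = 0.176) passed. Differences in this list were above 0 for 10 genes and below 0 for 10, with a median of 0.04. Lactoferrin, Ltf, went from 10.76 ± 0.10 to 10.16 ± 0.06 with no overlap (adjusted p = 0.204), and cathelicidin, Camp, was at -0.18. Of 22 macrophage genes 1 fell (4.55%, against 1.87%). It was Cd68, a lysosomal protein that osteoclasts also carry (7.37 ± 0.14 to 5.23 ± 0.59). Fcer1g (-0.44) and Lgmn (-0.40) did not pass. Of 38 replication and mitosis genes 2 fell (5.26%, against 1.87%). They were the lamin Lmnb1 (8.35 ± 0.10 to 7.04 ± 0.22) and the kinesin Kif22 (8.05 ± 0.01 to 7.21 ± 0.29). Mcm4 was at -0.19 and Cenpa at -0.17.

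None of 7 B lineage, 12 T and NK cell, 8 MHC class II, 11 megakaryocyte, 16 adipocyte, 26 endothelial, 27 type I interferon, 34 cytokine, 42 ribosomal protein, 19 glycolysis and 26 immediate early genes passed, and their medians lay between -0.18 and 0.26. Examples are the precursor B cell gene Vpreb3 (1.14, adjusted p = 0.141), Il7r (0.14), Thy1 (0.13), Prf1 (0.23), the MHC class II genes H2-Ab1 (0.26) and Cd74 (-0.04), Nfe2 (-0.04), Pdgfb (-0.48), the lipid enzyme Lpl (0.72, adjusted p = 0.151), Egfl7 (0.01), Esam (0.23), Rsad2 (0.44), Samd9l (-0.06), Mif (0.08), Rpl38 (-0.09), Rpl23 (-0.07), Tpi1 (0.16), Pgam2 (0.10), Bag3 (0.34) and Egr1 (-0.11). The T cell markers Cd3d, Cd3e, Cd3g, Lck and Cd8a were below the filter, and Rag1 itself read 6.63 on D21 replicate 3 and was near the floor on the other 5 arrays. Tnf was not tested. Over all 29 lists, 6 of 696 distinct tested members were upregulated and 41 downregulated, against 58 and 192 of all 10291 tested genes.

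The levels of the called genes over the other WT days were read as a description with no test. Of the 192 downregulated genes, 167 had a higher mean at D21 than in intact bone at D0, against 5385 of all 10291 tested genes. For 137 of the 192 the D28 mean was closer to the D0 mean than the D21 mean had been (71.4%, against 48.2% of all tested genes). Genes chosen for a fall from D21 to D28 have a high D21 or a low D28 mean partly by that choice. These shares are therefore a description. By D28 the mean was still above D0 in 78 of the 192 and below it in 114. Col1a1 peaked at D14 (13.28 ± 0.18), stood at 12.41 ± 0.08 at D21 and at 10.68 ± 0.10 at D28, close to the 10.36 ± 0.16 of intact bone. Sp7 was at 8.68 ± 0.15 at D28 and at 8.54 ± 0.12 at D0, with overlapping arrays, whereas Ibsp (10.59 ± 0.21 against 8.69 ± 0.15) and Mmp13 (12.37 ± 0.07 against 11.71 ± 0.05) were still above it. Sp7 and Ibsp already read 11.90 ± 0.09 and 12.39 ± 0.13 at D3, when Col1a1 (10.35 ± 0.10) was at its D0 level. The D3 and D7 groups are given as labelled, and whether their labels hold was not tested. Without them 26 genes were higher and 120 lower between D21 and D28. Of the 58 upregulated genes, 44 had a lower D21 mean than D0, against 4905 of all 10291 tested genes. In 36 of the 58 the highest mean of all 6 days was at D28, which their choice as higher at D28 favors. How many of all tested genes had their highest mean at D28 was not counted. For 29 of the 58 the D28 mean was closer to D0 than the D21 mean had been (50%, against 48.2% of all tested genes). Vegfa was near the floor at D3 and D7 (4.81 ± 0.50 and 4.77 ± 0.44) and at D28 lay above D0 (9.64 ± 0.23 against 8.77 ± 0.18), while Retnlg at D28 was below its D0 level of 8.98 ± 0.16.

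**Figure D4:**
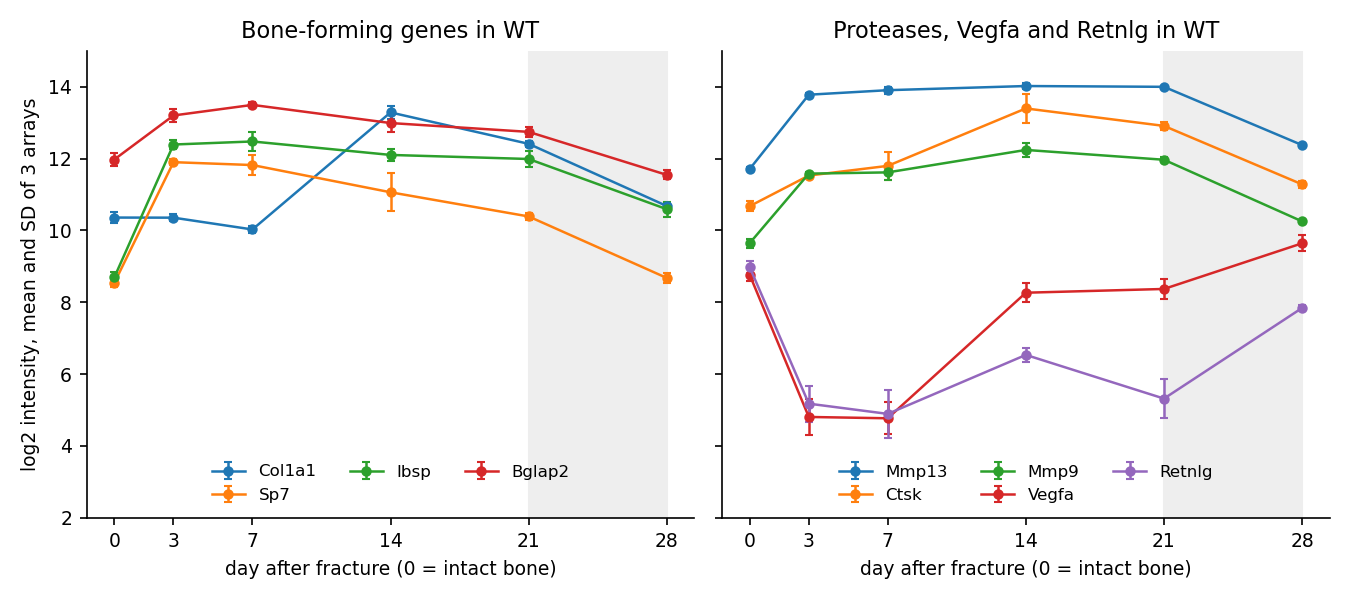
Log2 intensity (vertical axis, mean and SD of 3 arrays) of 9 genes against the day after fracture (horizontal axis) in WT, with the interval from D21 to D28 shaded. Col1a1 falls from 12.41 to 10.68 and Ctsk from 12.91 to 11.28 in the shaded interval, and Vegfa and Retnlg rise.

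The same interval in RAG1-/- callus was compared to show where the WT step differed. There, 1849 genes were upregulated (18%) and 1807 downregulated (17.6%), on arrays that were closer together. Of the 192 genes downregulated in WT, 117 were downregulated in RAG1-/- too (60.9% of the WT list and 6.47% of the RAG1-/- list), 21 were upregulated and 54 did not pass. Of the 58 upregulated in WT, 30 were upregulated in RAG1-/- (51.7% and 1.62%), 8 downregulated and 20 did not pass. Over the 10291 genes the 2 steps correlated with a Pearson r of 0.25 and a Spearman rho of 0.22, across genes that are not independent.

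A test of the difference between the 2 steps passed for 608 of 10291 genes (5.91%), with the WT step the higher in 186 (1.81%) and the lower in 422 (4.1%). Col1a1 (-1.73 in WT and -2.08 in RAG1-/-, adjusted p of the difference = 0.413), Mmp13 (-1.62 and -1.59, adjusted p = 0.937), Ibsp (-1.40 and -1.50, adjusted p = 0.878) and Sp7 (-1.71 and -1.29, adjusted p = 0.378) did not pass this test. Among resorption enzymes Ctsk and Mmp9 did, with a smaller fall in WT, whereas Acp5 did not (adjusted p = 0.411). Ctsk stood at -1.63 in WT and -3.45 in RAG1-/- (difference of the steps 1.83, adjusted p = 8.14e-06), and Mmp9 at -1.72 and -2.93 (1.21, adjusted p = 2.73e-05). Bglap1 likewise stood at -1.04 and -2.36 (1.31, adjusted p = 8.14e-06), while Bglap2 did not pass (-1.20 and -1.80, adjusted p = 0.051). Tcirg1 went the other way, with the larger fall in WT (-1.64 against -0.82, adjusted p = 0.0266), as did Timp1 (-1.59 against -0.33, adjusted p = 1.43e-06).

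Enpp1 fell by 2.33 in WT and was at -0.16 in RAG1-/- (adjusted p of the difference = 0.00192), and Wisp2 stood at -1.94 in WT, where it fell, and at 0.12 in RAG1-/-, where it was not called (adjusted p = 0.00351). Vegfa rose by 1.27 in WT and stood at -0.16 in RAG1-/- (adjusted p = 0.00498), and Retnlg rose by 2.52 and stood at -0.29 (adjusted p = 7.82e-06). Grn fell in WT (-0.91) and rose in RAG1-/- (0.55). The largest differences with the WT step lower were those of the adipocyte gene Cfd (0.34 in WT and 5.10 in RAG1-/-), Gpnmb, also known as osteoactivin (-0.64 and 2.91), the galanin gene Gal (-1.36 and 2.10), the muscle regulator Myog (-0.94 and 2.51), the fetal acetylcholine receptor subunit Chrng (-0.99 and 2.38) and Serpina3n (-1.44 and 1.80), all called in RAG1-/- and none in WT. Second probes of Gpnmb and Myog differed in WT by 0.51 and 0.53, against the sign of the first. With the WT step higher they were Moxd1 (1.03 and -2.14), the cartilage collagen Col9a2 (-0.26 and -3.08), Retnlg, LOC100043257 (1.72 and -0.87), Plod2 (0.33 and -2.22) and Actg2 (0.00 and -2.52). Macrophage genes were called higher in RAG1-/- in 19 of 22, against 18% of all tested genes, and none was called higher in WT. Of their steps 9 differed, all lower in WT, against 4.1% of all tested genes. Among the muscle genes 27 of 36 were higher in RAG1-/-, against the same 18%. Of their steps 10 were lower in WT and 2 higher, against 4.1% and 1.81% of all tested genes.

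**Figure D5:**
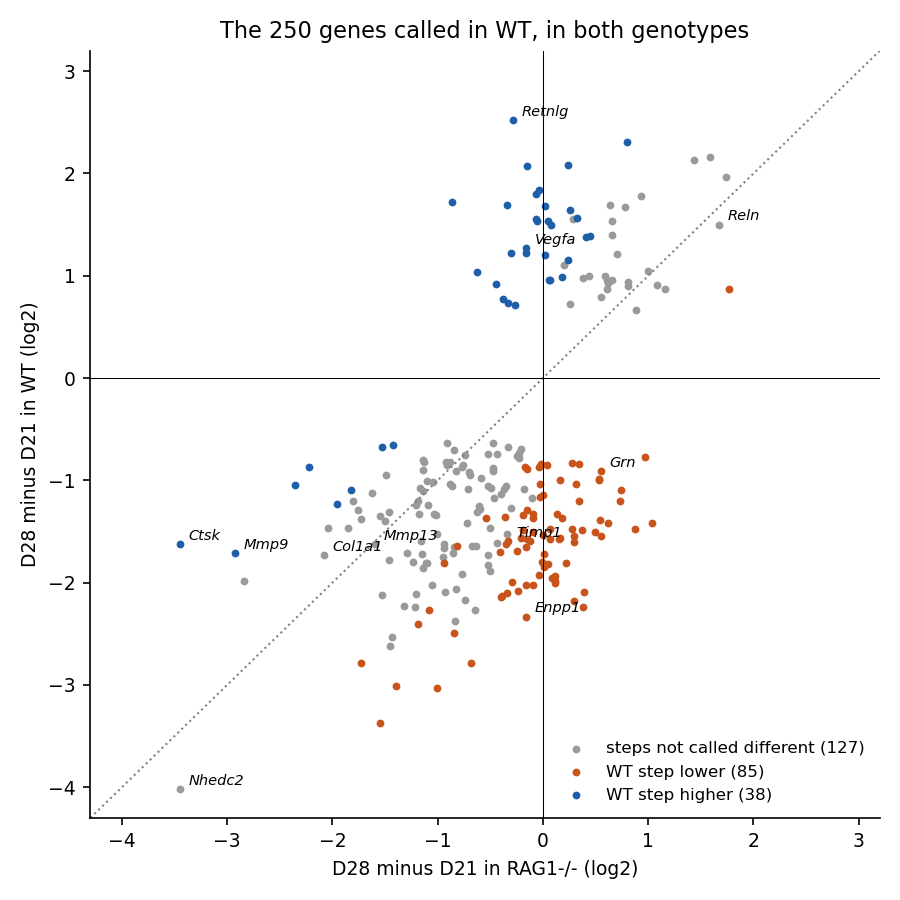
Difference D28 minus D21 in WT (log2, vertical axis) against the same difference in RAG1-/- (log2, horizontal axis) for the 250 genes called in WT, coloured by the test of the difference between the steps, with a dotted line where both are equal. Genes chosen for their WT change lie away from 0 on the vertical axis by that choice. The WT step was lower for 85 of them, higher for 38 and not called different for 127.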

How the data were processed

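Expression was measured on Illumina MouseRef-8 v2 bead arrays. Per the study's methods the authors pooled 150 ng of RNA from each of 5 mice, hybridised 200 ng to each of 3 arrays per group, pre-processed the bead data with beadarray and quantile normalised them with lumi, and deposited log2 values for 25697 probes. Tool versions are not given in the sources used here, and the log base was read from the range of the values. A further 264 columns of per-array values named by chip position, and the detection p-values, were not used. No read depth applies, and 3 arrays per group limit the precision.

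Groups were taken from the labels. Probes with a mean over 36 arrays above the median of 4.72 were kept (12848 probes, 10291 genes), and the brightest probe stood for a gene. Of the tested symbols 8296 were current, 1552 were paired with a current one and 443 were unmatched, and symbols are printed as deposited. The difference D28 minus D21 was fitted with limma 3.58.1 in R 4.3.3 on the 18 WT arrays with a mean per group, moderated by empirical Bayes and adjusted by Benjamini-Hochberg over all tested genes. The RAG1-/- step used the 18 RAG1-/- arrays, and the difference of the steps all 36. WT arrays were fitted alone since the RAG1-/- arrays lay closer together. The fit was tested on simulated data. The two-tailed t-test of the study's methods was an alternative.

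Named genes were the 12 largest called differences in each direction without overlap, up to 4 called members per direction and 2 uncalled members of each of 29 lists, 20 fixed genes, and up to 6 per direction that moved alike in both genotypes or differed between them. Some genes that the rule takes in are not reported here. The members and lists were chosen with earlier results of these data known. Upstream sequences came from RefSeq (GRCm38.p6). Figures were drawn with matplotlib 3.10.9.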

Additional observations from a re-analysis of the deposited data

Results flagged for a closer look

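For 63 of the 155 described genes the step from D21 to D28 differed between WT and RAG1-/- by a test of the difference itself (limma on all 36 arrays, adjusted p under 0.05), against 5.91% of all tested genes. Since some of them were named for that difference, the share is a description. The values below are the WT step minus the RAG1-/- step on the log2 scale.

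The WT step was the lower for 33 genes. The largest of these were Cfd (-4.77), Gpnmb (-3.54), Gal (-3.46), Myog (-3.44), Chrng (-3.37) and Serpina3n (-3.24). Red cell, macrophage and MHC class II genes followed with Slc4a1 (-3.11), Kel (-1.88), Cd68 (-1.74), Fcer1g (-1.39), Cd74 (-1.27) and H2-Ab1 (-0.75). Among genes of matrix, signaling and osteoclasts were Enpp1 (-2.17), Mgp (-0.72), Wisp2 (-2.05), Grn (-1.47), Bdnf (-1.14), Timp1 (-1.26), Src (-1.22) and Tcirg1 (-0.82). Lysosomal genes were Ctsb (-1.27), Gusb (-1.14), Hexa (-0.99) and Glb1 (-0.87). The others were Accn3 (-2.10), Fam109a (-2.03), Fblim1 (-1.83), Tmem176a (-1.65), Slit2 (-1.62), Prss35 (-1.06), Kif22 (-1.18), Mylpf (-1.20) and Ckmt2 (-0.90). Kel and Bdnf had RAG1-/- D21 means near the floor (4.53 and 4.64), so a fall of these in RAG1-/- could not be read.

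The WT step was the higher for 30 genes. Among resorption and osteocalcin genes these were Ctsk (1.83), Mmp9 (1.21), Mmp2 (0.93) and Bglap1 (1.31). Each of them was lower at D28 in both genotypes, although Mmp2 did not pass in WT. Of the 19 osteoclast genes the WT step was higher in 3 and lower in 2, and the steps of Acp5 and Bglap2 did not pass. Cartilage and matrix genes were Col9a2 (2.82), Acan (2.51), Comp (1.36), Matn4 (1.35), Thbs2 (0.85), Spon2 (0.98), Plod2 (2.56) and Ltbp4 (0.88). The neutrophil genes were Retnlg (2.81), S100a8 (1.81), S100a9 (1.87) and Ltf (0.93). The others were Moxd1 (3.17), Dkk3 (1.86), LOC100043257 (2.59), Actg2 (2.52), Aebp2 (2.23), Myot (2.04), Helz (1.88), Olfr725 (1.87), Zfp768 (1.85), Tcf15 (1.51), Vegfa (1.43), Egr1 (1.06), Idh2 (0.95) and Esam (0.69). Col9a2, Acan, Moxd1, LOC100043257, Actg2, Aebp2 and Olfr725 had WT D21 means near the floor, so a fall of these in WT could not be read.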

How the results depend on the processing

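The counts of 58 genes higher and 192 lower depended most on the arrays behind the spread. They were 7 and 43 from the 6 arrays alone, 446 and 820 from all 36, and 114 higher without D14, while 26 and 120 passed without D3 and D7, an alternative chosen after seeing the data. The methods' t-test gave 96 higher and 130 lower, of which 21 and 74 were called in the limma fit. A stricter filter on dim probes gave 114 and 306 of 4890 genes, the second brightest probe 3 and 15 of 2021 genes, an adjusted p under 0.01 gave 13 and 78, and a 2-fold limit left 36 higher. Leaving out 1 array gave 22 to 69 higher and 105 to 215 lower. For the difference of the steps this gave 120 (without RAG1-/- D21 replicate 1) to 284 (without WT D28 replicate 1) higher and 306 to 571 lower.

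With the 6 arrays alone 1 list member was higher and 14 lower, and with all 36 arrays 43 and 108. The lower members were 2 and 15 for osteoblast, 2 and 10 for collagen, 1 and 15 for collagen processing, 0 and 11 for noncollagenous matrix and 0 and 5 for growth factor genes. Osteoclast genes gave 3 with the 6 arrays, and protease genes 11 with all 36. Arsb reversed to 0.148 (adjusted p = 0.967) with its second probe. The causes were not tested, beyond the smaller number of genes or arrays in some settings.

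Of the 76 called genes described, 17 kept their call under every alternative run, among them Col1a1, Sp7, Ctsk, Mmp9, Timp1, Tcirg1, Serpinh1 and Slit2. Of 1455 values, 1130 kept the call, 324 kept the direction but lost the call and 1 was reversed. Vegfa lost its call in 8 of 20 alternatives, Col1a2 in 8 of 19, Col5a1 in 9 of 19, Timp2 in 11 of 19 and Myot in 13 of 20. With the replicate number as a block 39 were higher and 159 lower. Deviations of arrays with the same number correlated at -0.03 to 0.06, so the numbers do not pair the arrays. The main limit is that each group is 1 pool, so the spread between mice is unknown.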
